A study of Rattus norvegicus with 5 samples.

Results

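The 6 rat genes described here encode parts of the extracellular matrix, a matrix receptor and inhibitors of the enzymes that cut matrix: Fn1, Col9a1, Sparc, Itgb1, Timp1 and Timp2. They were picked by name, with the signals on these arrays already known, and all array probe sets annotated to the 6 symbols were taken, which gave 9 of the 15866 probe sets that are not controls (6 of 10411 named genes). Their signals in the 3 groups chose them, so their values are given as a description, without p-values. Expression arrays were read for 5 RNA samples, 1 array each. Set 5-3 held clones 14 and 19, and set 1-1 held clones 2 and 16, and values are given in that order within each set. All 4 clones are INS-1 Flp-In T-REx cells: they carry an FRT site, at which Flp recombinase can insert a gene, and a tetracycline repressor, which silences such a gene until tetracycline is given. The labels name no inserted gene and no tetracycline treatment for these samples. The reference was parental INS-1, a rat insulinoma line that secretes insulin. What sets a clone set apart, and whether clones of a set share an ancestor, is not given in the labels.

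Fibronectin and collagens form the fibrous matrix around cells, and integrins, which pair an alpha with a beta subunit, hold cells to it. Matrix metalloproteinases cut these proteins, and tissue inhibitors of metalloproteinases (TIMPs) block them. In islets, beta cells touch a basement membrane made largely by blood vessel cells, and integrins with the beta subunit encoded by Itgb1 are their main receptors for it.

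Signals are in arbitrary linear units, with a trimmed mean of 1000.24 to 1000.28 on each array as deposited, and precision is limited by having only 5 arrays. Beta cell markers were bright on all arrays: the summed signal of 8 markers was 101987 and 102607 in set 5-3, 142144 and 89758 in set 1-1 and 134706 in parental INS-1. Among them the insulin gene Ins2 set clone 2 of set 1-1 and the parental line apart from the other arrays, at 3953 and 4303 in set 5-3, 30224 and 5381 in set 1-1 and 28816 in parental INS-1. Of 11 fibroblast and stellate cell markers, 7 were below a signal of 194 on all arrays, and the filament gene Vim read 6.1 to 17.1. Thy1 was the brightest, at 2053 and 1108 in set 5-3, 1840 and 853.7 in set 1-1 and 930.8 in parental INS-1. It was the largest term in the sum on every array. Acta2 read 180.7 to 335.5 and Des 159.5 to 269.9. The summed signal of those 11 was 3123 and 2217 in set 5-3, 3013 and 1933 in set 1-1 and 1988 in parental INS-1. All 4 endothelial and all 5 leukocyte markers on the array were below 194 on every array, as were 5 of 6 ductal and acinar markers. The endothelial sums were 163.7 to 260.5. The leukocyte sums were 520.2 and 547.2 in set 5-3, 353.9 and 277.3 in set 1-1 and 494.4 in parental INS-1. This order of groups is also seen below for Fn1 and Timp1. Of these 5 dim markers 4 (Cd68, Cd3e, Lyz2 and Aif1) were higher in set 5-3 without overlap. The other, Ptprc, was lower without overlap, at 25.3 and 29.6 in set 5-3 and 67.6 and 32.7 in set 1-1. Of the 9520 probe sets bright enough to test, 22.1% were higher in set 5-3 without overlap and 24.5% lower. The ductal and acinar marker that was brighter was the keratin gene Krt7, at 808.1 to 1833.8. The sums of the 6 ductal and acinar markers were 1058 to 2089. The part of these cells in the results was not tested.

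A plot of all 9 probe sets shows that Fn1, Itgb1, Timp1 and 1 probe set of Timp2 separated the clone sets. On the log2 scale used below, differences are of log2(signal + 21.8), where 21.8 is the 10th percentile of all signals above 0, and they understate the change of dim genes. Of the 9 probe sets, 6 had a mean level in the upper part of the array (at or above the 40th percentile, a signal of about 194). These were the ones for Fn1, Col9a1, Itgb1 (both), Timp1 and 1 of the 2 for Sparc.

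**Figure D1:**
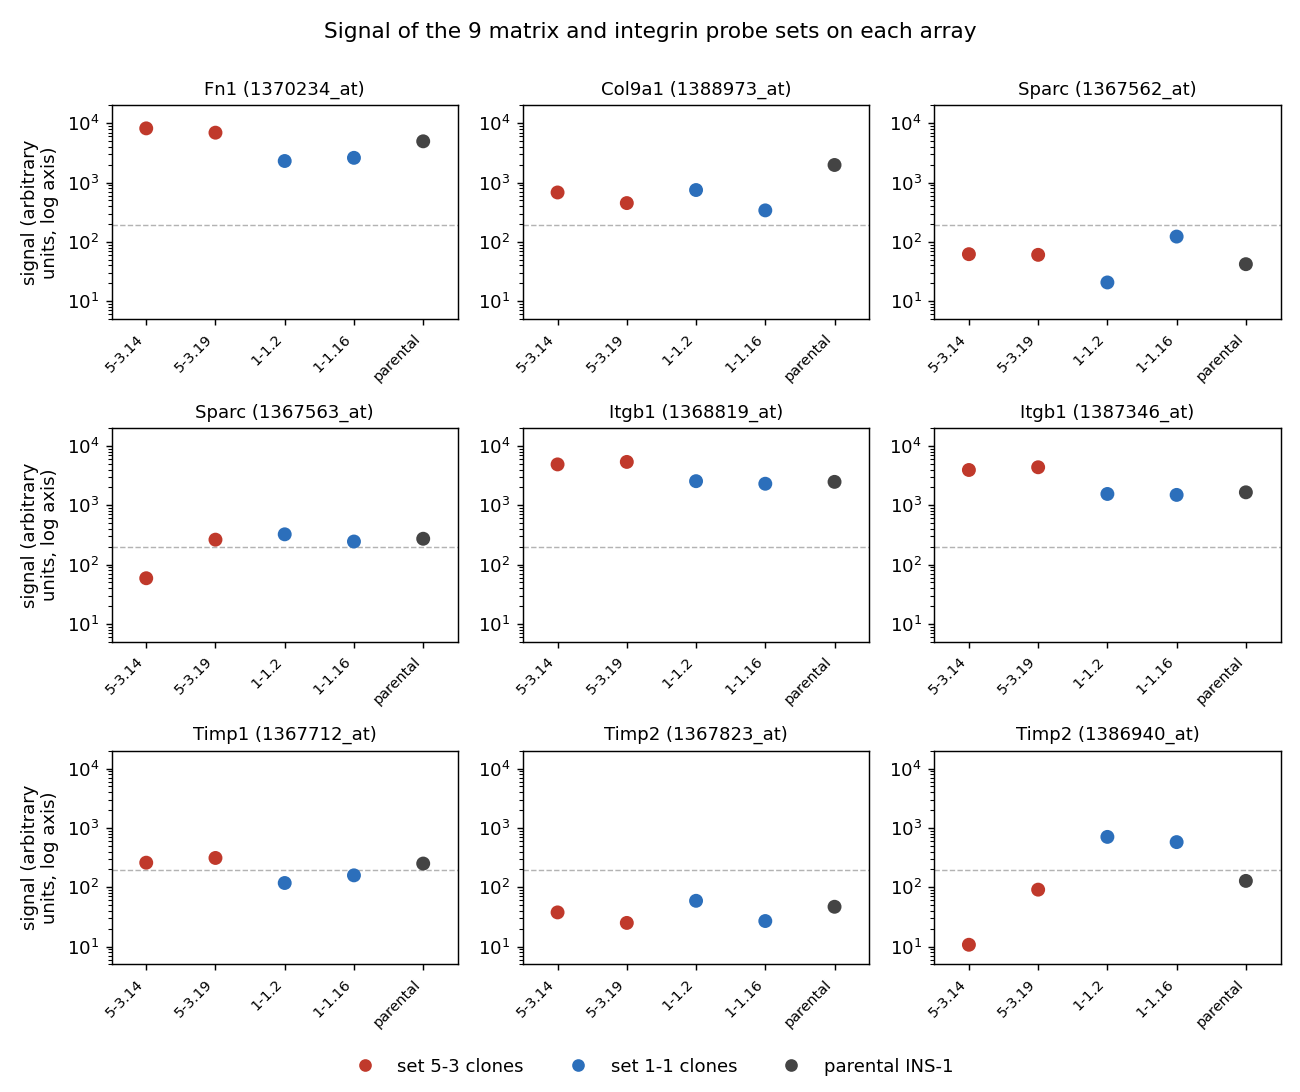
Signal (arbitrary units, log axis) of each of the 9 probe sets on the 5 arrays, 1 point per array, with set 5-3 in red, set 1-1 in blue and parental INS-1 in dark grey; the dashed line marks a signal of 194. Fn1, both Itgb1 probe sets and Timp1 read higher in both 5-3 clones than in both 1-1 clones, and the Timp2 probe set 1386940_at read lower.

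Fn1 encodes fibronectin, a secreted glycoprotein that binds integrins, collagen and heparan sulfate. Its probe set 1370234_at read 8221 and 6953 in set 5-3, 2314 and 2618 in set 1-1 and 4972 in parental INS-1. Every 5-3 reading lay above the parental signal and every 1-1 reading below it, with no overlap. The means were 7587 ± 897 in set 5-3 and 2466 ± 215 in set 1-1 (SD, n = 2 each), a ratio of 3.08. The sets lay 1.61 apart on the log2 scale, while the 2 clones of a set lay 0.24 apart in set 5-3 and 0.18 in set 1-1. Against the parental line the ratio was 1.53 for set 5-3 and 0.496 for set 1-1. Since the sets lay on opposite sides of it, the mean of the 4 clones, 5027 ± 3004 (SD, n = 4), was close to the parental 4972. Fewer cells that express a gene and less RNA per cell cannot be told apart in such bulk samples.

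Col9a1 encodes a chain of type IX collagen, which coats the surface of collagen fibrils and is best known from cartilage. Its probe set 1388973_at read 681.8 and 451.6 in set 5-3, 749.7 and 340.1 in set 1-1 and 1983 in parental INS-1. All 4 clones were below the parental line, and the sets overlapped. The clones averaged 555.8 ± 192 (SD, n = 4) against 1983 in the parental line, a log2 difference of -1.86. The single clones differed from it by -1.51 and -2.08 in set 5-3 and by -1.38 and -2.47 in set 1-1, so sister clones were 0.57 and 1.09 apart. Col9a1 was the only one of the 9 probe sets for which the clones were all below, or all above, the parental signal. Of all 9520 probe sets tested, 38.1% were of this kind, 19.7% with the clones below and 18.4% with them above; as the gene was picked on these arrays, nothing is read from the share.

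Only 1 parental array was read, so effects of that array and of the parental line cannot be told apart. Control RNAs were not at one level: the lys control read 1225 to 1668 on the clone arrays and 4866 on the parental array, a ratio of parental to clones of 3.53. For the like controls phe, thr, trp and dap that ratio was 1.27, 1.57, 1.40 and 1.36. Of 18 probe sets for the controls bioB, bioC, bioD and cre, 15 read lower on the parental array than on all 4 clone arrays and 0 read higher. The bearing of this on Col9a1 and on the other differences from the parental line was not tested.

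Sparc encodes a collagen-binding glycoprotein that modulates how cells attach to matrix. Its brighter probe set 1367563_at read 58.8 and 263 in set 5-3, 323.6 and 244.6 in set 1-1 and 272.4 in parental INS-1. Clone 14 of set 5-3 stood below the other 4 arrays, and the sets overlapped because clone 19 read like the rest. The ratio of set 5-3 to set 1-1 was 0.566, but the 5-3 clones themselves were 1.82 apart on the log2 scale, and without clone 14 the sets differed by -0.09. The second probe set, 1367562_at, was dim, at 62.1 and 60.5 in set 5-3, 20.7 and 123 in set 1-1 and 42.1 in parental INS-1. It did not show the low reading of clone 14.

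Itgb1 encodes the integrin beta subunit shared by most receptors for fibronectin, laminin and collagen. Its probe set 1368819_at read 4889 and 5385 in set 5-3, 2550 and 2307 in set 1-1 and 2482 in parental INS-1. The second, 1387346_at, read 3936 and 4375 in set 5-3, 1551 and 1496 in set 1-1 and 1654 in parental INS-1. By both probe sets the 5-3 clones were above all other arrays, and the 1-1 clones read close to the parental line. The ratio of set 5-3 to set 1-1 was 2.12 by the first and 2.73 by the second, with log2 differences of 1.07 and 1.43. Clones within a set differed by 0.05 to 0.15 on that scale. The ratio to the parental line was 2.07 and 2.51 for set 5-3, and 0.979 and 0.921 for set 1-1. Thus Itgb1 and Fn1 ordered the groups differently: Fn1 placed the parental line between the sets, whereas Itgb1 placed it with set 1-1.

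Timp1 encodes a secreted inhibitor of matrix metalloproteinases. Its probe set 1367712_at read 259.3 and 311.5 in set 5-3, 117.8 and 158.6 in set 1-1 and 250.7 in parental INS-1. The sets did not overlap, and the parental signal was just under the lower 5-3 reading. The means were 285.4 ± 36.9 in set 5-3 and 138.2 ± 28.9 in set 1-1 (SD, n = 2 each), a log2 difference of 0.95, with gaps of 0.25 and 0.37 between clones of a set. All of these signals were dim, with the 1-1 readings below 194.

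Timp2 encodes a related inhibitor, which also helps a membrane-bound metalloproteinase activate the gelatinase encoded by Mmp2. Its brighter probe set 1386940_at read 10.7 and 91 in set 5-3, 706.1 and 576.6 in set 1-1 and 127.8 in parental INS-1. The 1-1 clones were above all other arrays and both 5-3 clones were below the parental line, opposite to the order seen for Timp1. The means were 50.9 ± 56.8 in set 5-3 and 641.4 ± 91.6 in set 1-1 (SD, n = 2 each). Because the 5-3 signals were near the floor of the array, the size of the difference depended on the offset: it was -3.45 on the log2 scale, -2.46 with an offset 4 times larger and -4.03 with one 4 times smaller. The second probe set, 1367823_at, was dim on every array, at 37.6 and 25 in set 5-3, 59 and 26.9 in set 1-1 and 46.8 in parental INS-1. It did not separate the sets, so the Timp2 difference rests on 1 probe set.

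**Figure D2:**
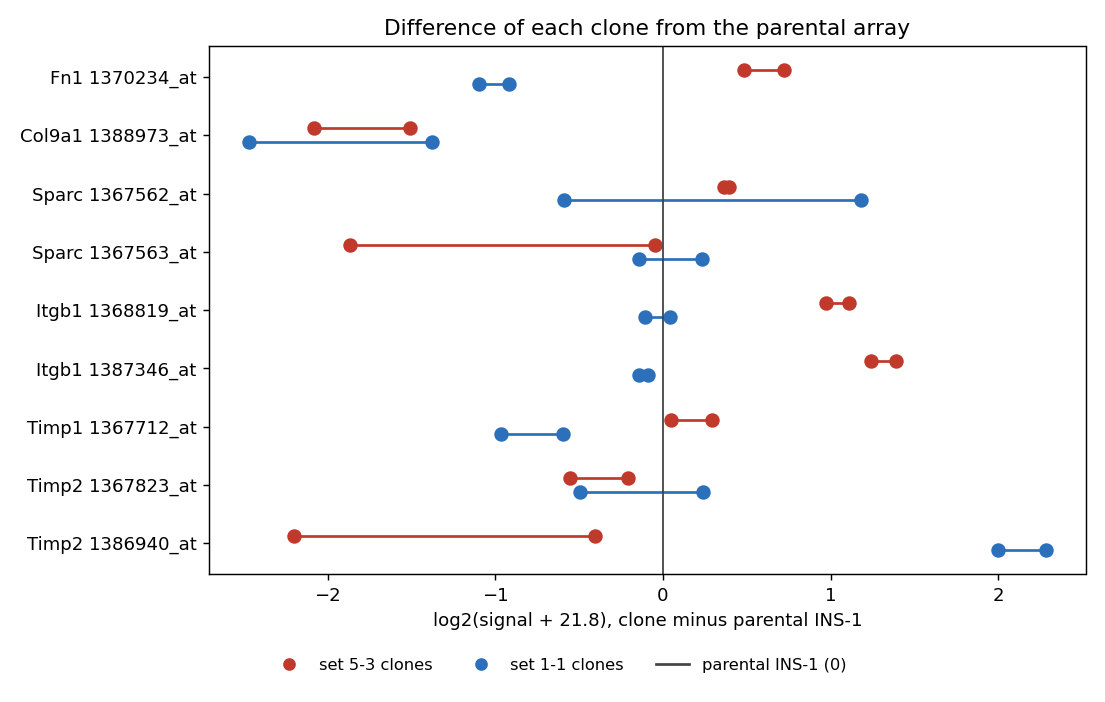
Difference of each clone from the parental array in log2(signal + 21.8) for the 9 probe sets; red points are the 2 clones of set 5-3, blue points the 2 clones of set 1-1, the line joins clones of a set, and the vertical line at 0 is the parental array. Fn1 lies on opposite sides of 0 in the sets, Itgb1 is about 1 or more above 0 in set 5-3 alone, and Col9a1 is below 0 in all 4 clones.

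In all, the sets did not overlap for 5 of the 9 probe sets, with set 5-3 above set 1-1 for 4 and below it for 1. Of the 6 probe sets that passed the filter on level, 4 did not overlap, all with set 5-3 above, and the Timp2 probe set was not among the 6. Of all 9520 probe sets that passed it, 46.6% did not overlap, 22.1% with set 5-3 above and 24.5% with it below. Separation together with a log2 difference of at least 1 was seen at 5.18% of probe sets. The 6 genes were chosen for such differences, so these shares stand beside the counts only as background. In Fn1, Timp1 and the second Itgb1 probe set both 5-3 clones read above and both 1-1 clones below the parental signal, as in 5.71% of all tested, although for Itgb1 the 1-1 clones differed from it by only -0.09 and -0.14 on the log2 scale. The reverse, as for Timp2, was found in 6.42%.

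The sequences before the start sites of Itgb1, Timp1 and Timp2 are shown because these genes separated the sets, Itgb1 and Timp1 with higher and Timp2 with lower signal in set 5-3. Each runs from 250 bases before to 50 bases after the RefSeq start in GRCr8, 5′ to 3′ on the strand of the gene, and capitals mark the matches to the motifs named below.
Itgb1, chr19:73602027-73602326, plus strand: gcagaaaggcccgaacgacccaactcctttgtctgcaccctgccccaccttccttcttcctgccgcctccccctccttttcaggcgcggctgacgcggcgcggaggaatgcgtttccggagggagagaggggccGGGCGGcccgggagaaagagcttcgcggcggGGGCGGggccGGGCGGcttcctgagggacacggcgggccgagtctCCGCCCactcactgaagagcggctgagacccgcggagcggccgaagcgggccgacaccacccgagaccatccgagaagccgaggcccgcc
Timp1, chrX:3771073-3771372, minus strand: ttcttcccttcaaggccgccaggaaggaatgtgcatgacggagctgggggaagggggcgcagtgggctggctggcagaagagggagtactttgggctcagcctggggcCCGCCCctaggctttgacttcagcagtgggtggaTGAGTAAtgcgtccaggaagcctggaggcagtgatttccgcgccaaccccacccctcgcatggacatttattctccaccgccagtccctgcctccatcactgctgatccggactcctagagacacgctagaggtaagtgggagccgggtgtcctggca
Timp2, chr10:104089165-104089464, minus strand: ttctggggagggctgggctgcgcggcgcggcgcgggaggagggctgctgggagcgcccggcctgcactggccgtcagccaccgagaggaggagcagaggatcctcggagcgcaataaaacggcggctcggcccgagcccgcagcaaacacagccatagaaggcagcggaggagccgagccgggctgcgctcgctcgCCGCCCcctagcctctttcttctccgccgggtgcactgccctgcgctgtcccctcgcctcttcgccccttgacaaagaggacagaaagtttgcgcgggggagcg

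The 5 motifs were searched on both strands: the TATA box (TATAAA), the GC box (GGGCGG), the CCAAT box (CCAAT), the AP-1 consensus (TGANTCA) and TGAGTAA, an AP-1 variant known from the mouse Timp1 promoter and added after the rat sequence was seen. No matches overlapped each other. The GC box was found 4 times in the Itgb1 window and once each in those of Timp1 and Timp2, and 33.1% of 33469 rat promoter windows of this length hold it. The Timp1 window also held TGAGTAA, starting 108 bases before the start site, which 2.90% of windows hold. None of the 3 windows held TATAAA (14.2% of all windows), CCAAT (37.5%) or TGANTCA (7.33%). The Itgb1 and Timp2 windows were rich in G and C, at 71.7% and 70.3%, and Timp1 had 61.3%, with a median of 51.7% over all windows. Thus Itgb1 and Timp2, whose signals ran in opposite directions between the sets, had windows of like base composition. The Col9a1 and Sparc windows held none of the 5 motifs, and no window was found for Fn1. The bearing of motifs or base composition on the signals was not tested.

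Other genes of matrix and integrin biology were taken from 10 lists, with 214 genes on the array, none of them among the 6. Of these, 82 were bright enough to test. Adam15 was higher in set 5-3 and was the only one of the 82 past the threshold in the main fit. That fit used limma at 0.05 with Benjamini-Hochberg over all 9520 probe sets, and 0 were lower. With all clones kept but another offset or scaling, Tfpi and Tgfb2 passed as lower, as given beside each below. Fits that left out 1 clone took the spread of each gene from the other set alone. Calls gained in them are therefore not counted, and only differences are given. Of all tested probe sets, 0.420% passed between the sets, 0.221% higher and 0.200% lower in set 5-3. At an unadjusted limma p under 0.05 there were 19 of the 82 genes, beside 14.8% of all tested probe sets. The sets did not overlap for 45 of the 82, with 27 higher and 18 lower in set 5-3, which is 54.9% beside the 46.6% above. The median log2 difference between the sets was 0.05 over the 82 genes and -0.04 over all tested. The lists were chosen with earlier results of these data known. Nothing is therefore read from these shares, here or for the single lists below. Between the 4 clones and the parental line limma called 0 of the 82 and 0 of all 9520 (0% called), with 5 of the 82 and 3.67% of all at an unadjusted p under 0.05. That fit pooled the 4 clones, so differences between the sets counted as spread. With 1 parental array as well, a gene that differed between the sets could hardly be called in it.

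Adam15 encodes a membrane-bound disintegrin and metalloproteinase whose disintegrin domain can bind integrins. It read 1805 and 1728 in set 5-3, 509.4 and 596.7 in set 1-1 and 1282 in parental INS-1. Both 5-3 clones were above, and both 1-1 clones below, the parental signal, with a log2 difference between the sets of 1.64 ± 0.22 (SE, limma adjusted p = 0.0450). With all clones kept, the call was lost without a filter (limma adjusted p = 0.0921). It was also lost with the filter at the 60th percentile (0.0589) and without the intensity trend (0.0556). It passed with the other offsets and scalings and with the mean of all probe sets of a gene. With 1 clone left out the difference was 1.53 to 1.75, and the call was lost without clone 2 or clone 16 of set 1-1. Mmp2 and Mmp14, which encode the gelatinase and the membrane-bound enzyme that Timp2 acts with, were too dim to test: Mmp2 read 153.2 and 100.9 in set 5-3, 171.1 and 143.3 in set 1-1 and 147 in parental INS-1, and Mmp14 was at 25.8 to 127.2. Adamts9, another matrix protease gene, was not tested because its mean level over the 5 arrays was under the limit. It read 597.1 and 824 in set 5-3, 131 and 75.4 in set 1-1 and 34.6 in parental INS-1. Of the 10 matrix proteases tested, Ctsb and Ctsl, which encode lysosomal cathepsins, were the brightest. Ctsb read 3833 and 3892 in set 5-3, 2914 and 3015 in the 1-1 clones and 3288 in parental INS-1 (limma adjusted p = 0.434). Ctsl read 2411 and 5902 in set 5-3, 3392 and 4611 in set 1-1 and 4239 in parental INS-1 (0.956), with overlapping sets.

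**Figure D3:**
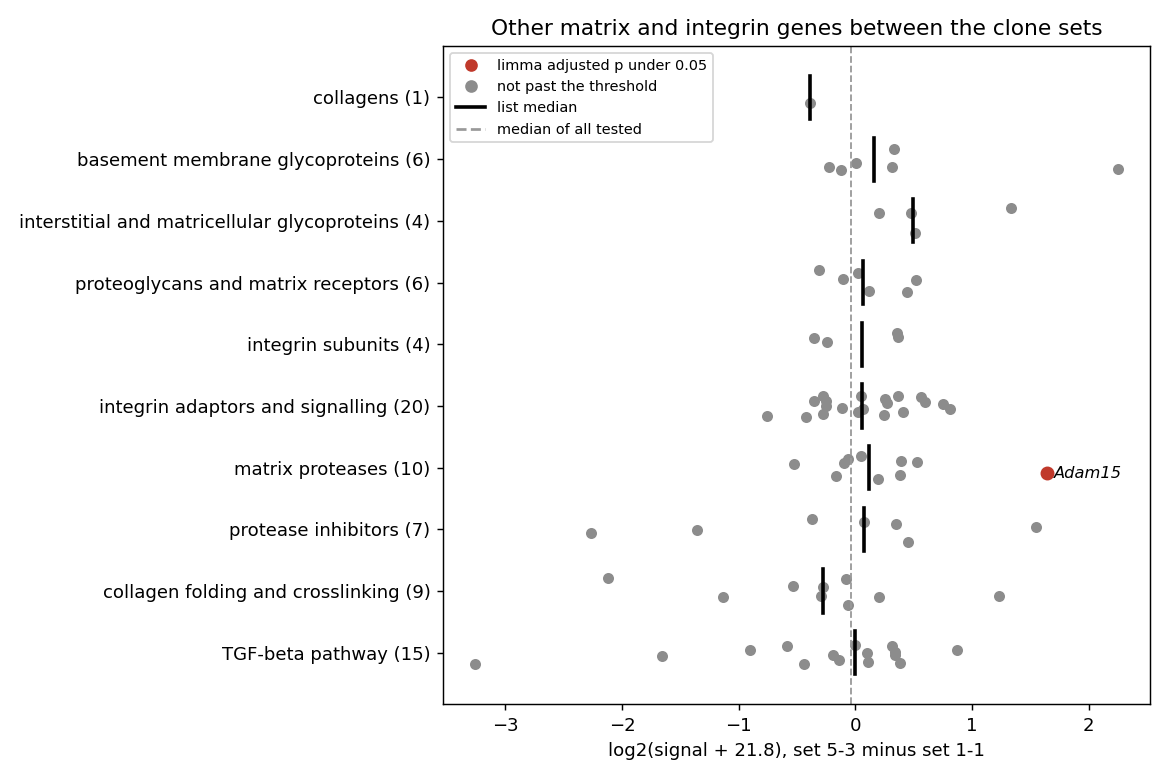
Difference of set 5-3 from set 1-1 in log2(signal + 21.8) for the 82 tested genes of 10 lists, 1 point per gene, with the number tested in parentheses, the list median as a black bar and the median of all tested probe sets as a dashed line. Adam15, in red at 1.64, is the only gene past the limma threshold in the main fit. The list medians lie between -0.39 and 0.49.

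Collagen genes were dim. Of 26 on the array besides Col9a1, 25 were below the limit for testing, with signals of 5.6 to 308.3. The exception was Col9a2, another chain of type IX collagen, at 182 and 194.5 in set 5-3, 263.5 and 244.5 in set 1-1 and 188.3 in parental INS-1. It did not show the high parental reading of Col9a1, and its difference between the sets did not pass (limma adjusted p = 0.578). The fibrillar collagen genes Col5a1 and Col3a1 were next in brightness, at 89.1 to 308.3 and 134.1 to 253.2. Of 9 tested genes for collagen folding and crosslinking, 1 was higher and 4 were lower in set 5-3 without overlap (55.6%, beside 46.6% of all tested), and 0 passed. The brightest were P4hb, a shared subunit of prolyl hydroxylase, at 14394 and 14048 in set 5-3, 17771 and 16801 in set 1-1 and 14820 in parental INS-1, Plod3 and Ppib. P3h1, a collagen prolyl hydroxylase, read 81.7 and 92 in set 5-3, 600.6 and 335.5 in set 1-1 and 389.6 in parental INS-1, which is -2.12 ± 0.35 on the log2 scale (SE, limma adjusted p = 0.0690). Without clone 16 of set 1-1 the difference was -2.52, and without clone 14 or 19 of set 5-3 it was -2.05 and -2.19. P4ha2, another prolyl hydroxylase subunit gene, differed by -1.14 (limma adjusted p = 0.105), and by -1.29 without clone 19.

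Among other integrin subunits 11 were on the array, and 4 could be tested: Itga3, Itga6, Itgae and Itgb5. None passed between the sets (lowest limma adjusted p 0.583), and the other 7 read 9.7 to 227.4. The alpha subunit genes Itga3 and Itga6 encode laminin receptors that pair with the product of Itgb1. Itga3 read 782.4 and 540.2 in set 5-3, 860.3 and 818.9 in set 1-1 and 777 in parental INS-1, so it was not higher in set 5-3 as Itgb1 was. Itga6 read 749.3 and 625.5 in set 5-3, 443.8 and 626.3 in set 1-1 and 296.7 in parental INS-1, and its dim second probe set gave 102.2 to 217.7, with the parental line between the clones. Itgb5, a beta subunit of a vitronectin receptor, read 691.2 and 649.1 in set 5-3, 447.9 and 602.4 in set 1-1 and 469.7 in parental INS-1. By its dimmer second probe set the clone sets overlapped, at 138.9 to 293.5. The brightest integrin partners were the tetraspanin genes Cd63, Cd81 and Cd151. Cd63 read 22733 and 23647 in set 5-3, 20375 and 18223 in the 1-1 clones and 18860 in parental INS-1 (limma adjusted p = 0.465). Of 20 adaptor and signalling genes tested, 0 passed, with 8 below the parental line in all 4 clones and 2 above, beside 19.7% and 18.4% of all tested. Ilk, the integrin-linked kinase gene, was the farthest from the parental line, at 2505 and 2165 in set 5-3, 1775 and 1385 in the 1-1 clones and 3161 in parental INS-1 (limma adjusted p = 1.00). Ptk2b, a relative of focal adhesion kinase, differed most between the sets, at 387.3 and 366.2 in set 5-3, 219.3 and 192 in set 1-1 and 390.3 in parental INS-1 (0.215).

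Of the glycoproteins, the laminin receptor gene Bcam read 1357 and 3339 in set 5-3, 420.5 and 439.2 in set 1-1 and 1183 in parental INS-1, 2.25 ± 0.41 apart on the log2 scale (SE, limma adjusted p = 0.0841). Without clone 14 of set 5-3 the difference was 2.90, and without clone 19 it was 1.61. The parental reading lay between the sets, as for Fn1. The laminin chain gene Lamb1 read 509.4 and 632.1 in set 5-3, 543.5 and 585.3 in set 1-1 and 370.2 in parental INS-1, with overlapping sets. Of the 4 interstitial glycoproteins tested, 3 were higher in set 5-3 without overlap (22.1% of all tested were) and 0 passed, with Tnr, a tenascin gene, the farthest apart (342.7 and 415.6 in set 5-3, 101.7 and 181.4 in the 1-1 clones, 198.1 in parental INS-1, limma adjusted p = 0.164). The proteoglycan gene Sdc4 was above the parental line in all 4 clones, at 3147 and 1574 in set 5-3, 4131 and 1861 in set 1-1 and 1312 in parental INS-1. The collagen receptor gene Ddr1 read 1555 and 1540 in set 5-3, 1034 and 1112 in the 1-1 clones and 1099 in parental INS-1 (limma adjusted p = 0.319), the same order of groups as Itgb1.

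Among 7 protease inhibitors besides the TIMPs 0 passed in the main fit. Without overlap 3 were higher and 3 lower in set 5-3 (85.7%, beside 46.6% of all tested). Tfpi, an inhibitor of the tissue factor pathway of clotting, read 407 and 732.9 in set 5-3, 3246 and 2273 in set 1-1 and 1548 in parental INS-1, -2.27 ± 0.34 on the log2 scale between the sets (SE, limma adjusted p = 0.0533). With all clones kept it passed, lower in set 5-3, with the larger offset (limma adjusted p = 0.0466) and under median centring (0.0434). The difference was -1.86 without clone 14 and -2.67 without clone 19 of set 5-3, and -2.52 without clone 16 of set 1-1. By this probe set the order of groups was that seen for Timp2, with the parental line between the sets. A dim second probe set of Tfpi read 31.9 and 57.9 in set 5-3, 124.2 and 65.6 in set 1-1 and 41.3 in parental INS-1. There the parental line fell between the 5-3 clones. Spint2 and Cst6, inhibitors of serine and cysteine proteases, were the brightest, and Spint2 read 14091 and 12385 in set 5-3, 11906 and 9036 in set 1-1 and 13534 in parental INS-1. Serpini1, the neuroserpin gene, was below the parental line in all 4 clones, at 208.2 and 649.6 in set 5-3, 991.3 and 974.2 in set 1-1 and 1956 in parental INS-1. Its log2 difference between the sets was -1.35 (limma adjusted p = 0.250), and -2.13 without clone 19 of set 5-3.

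TGF-beta is a secreted factor that raises matrix genes and Timp1 in many cell types. Of 15 tested genes of its pathway 0 passed between the sets in the main fit. Without overlap 4 were higher and 5 lower in set 5-3 (60% in all, beside 46.6% of all tested). The median log2 difference was 0.00. The ligand gene Tgfb2 differed most, at 106.7 and 35.1 in set 5-3, 530.5 and 1190 in set 1-1 and 214.9 in parental INS-1 (log2 difference -3.26 ± 0.52, SE, limma adjusted p = 0.0678). With all clones kept it passed, lower in set 5-3, under median centring (limma adjusted p = 0.0463). The difference was -3.85 without clone 14 and -2.67 without clone 19 of set 5-3, and -3.82 without clone 2 of set 1-1. Fst, which encodes an activin-binding protein, differed by -1.66 (limma adjusted p = 0.224), and by -2.52 without clone 2. The second, dimmer probe set of Tgfb2 read 84 and 16 in set 5-3, 488.8 and 1531 in set 1-1 and 18.1 in parental INS-1. Both probe sets had the 1-1 clones highest, as Timp2 did, and they placed the parental line differently. The target gene Id1, the signal transducer gene Smad4 and Skil, which encodes a repressor of the pathway, were the brightest of the list, and their sets lay within 0.59 of each other on the log2 scale.

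The genes with the most similar profile were found by the root mean square difference of log2 signals over the 5 arrays, each profile centred on its own mean, among all tested probe sets with 1 gene symbol. For Fn1 the closest was Adam15 (0.09), followed by a probe set of Mmp24, which encodes a membrane-type metalloproteinase (0.13). That Mmp24 probe set read 932.7 and 859.4 in set 5-3, 314.2 and 366.2 in set 1-1 and 604 in parental INS-1, but the other 2 probe sets of Mmp24 did not separate the sets (log2 differences of 0.06 and 0.05). For Itgb1 the closest were the histocompatibility gene RT1-S3 (0.07) and the clathrin adaptor subunit gene Ap1g1 (0.09), and for Timp1 they were N4bp1 (0.04) and the tau gene Mapt (0.07). RT1-S3 belongs to a family of near-identical genes, so its signal may be shared with them. By this measure Timp2 had no close match among the tested probe sets. Grin1, an NMDA receptor subunit gene, was at 0.49 and the nerve growth factor receptor gene Ngfr at 0.52. The Timp2 probe set itself was below the filter on level, so whether a gene as dim lies closer was not tested. The measure also grows with the spread of a profile. The SD over the arrays was 1.85 for Timp2 and 0.94 for Col9a1, the next largest. The correlation with Timp2 (Pearson r) was 0.976 for Grin1 and 0.953 for Ngfr, beside 0.981 to 0.998 for the other closest genes. Col9a1 was closest to Ankrd37 (0.13), a gene known to be induced by hypoxia, and to Nsg2 (0.20), and both were highest in the parental line. Sparc was closest to Btbd8 (0.10) and the chaperone gene Hspa13 (0.18), with clone 14 of set 5-3 lowest in both. The closest genes were picked from all those searched on only 5 arrays, for genes chosen on the same signals. Close profiles are thus likely to be found, and the likeness is given as a description only.

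**Figure D4:**
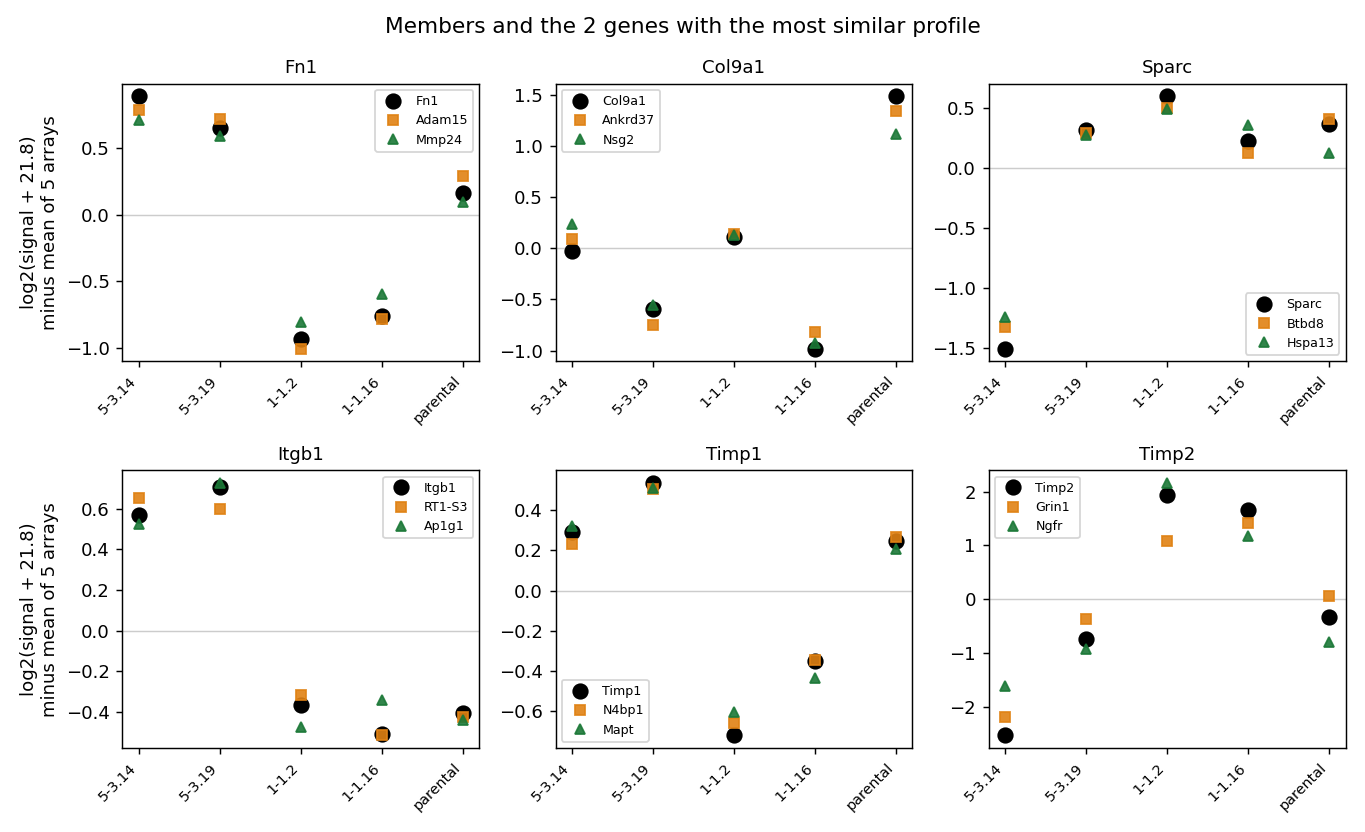
log2(signal + 21.8) minus its mean over the 5 arrays for each gene (black circles) and its closest genes (orange squares, the nearest; green triangles, the second), with the clones of set 5-3 at the left, those of set 1-1 next and parental INS-1 at the right; the vertical scale differs between panels. Fn1 and Adam15 differ by a root mean square of 0.09, and Timp2 and Grin1 by 0.49.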

How the data were processed

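One array each was read for parental INS-1 and 4 clones. For each of them the authors deposited a linear signal intensity at every probe set. What software and background correction made these values is not given in the sources used here. As deposited, the signal intensities had near-equal trimmed means (2% left out at each end) and were used as they stood. Without detection calls, dim signal and background cannot be told apart. Of 15923 probe sets, 57 controls were left out. GEO's platform annotation gave 12783 probe sets 1 symbol, 312 several and 2771 none, and only those with 1 symbol were used by name. By gene number 12748 matched the GRCr8 gene table, with 0 symbols changed.

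Tests used limma 3.58.1 in R 4.3.3 (lmFit, eBayes with an intensity trend) on log2(signal + 21.8), over 9520 probe sets at or above the 40th percentile of mean level. Clone sets were compared in a fit of 3 groups (2 residual degrees of freedom), and clones with the parental line in a fit of 2 groups (3), in which the spread comes from the clones. Adjusted p-values are Benjamini-Hochberg values over all tested, with calls made under 0.05. They measure only the spread between these clones, which nothing shows to be independent cultures or independent isolates. Each gene of a list was represented by its brightest probe set. Named genes of a list were those past the threshold, the 3 brightest, and the 1 farthest apart in each comparison. Others were named after their values were seen. These were Mmp2 and Mmp14 (for their link to Timp2), Adamts9 (for its signal in set 5-3) and Fst and P4ha2 (for calls without 1 clone). The 6 genes and the lists were chosen with earlier results of these data known. The fits were tested on simulated data. Alternatives changed the offset, scaling, filter, variance trend and probe set choice, and left out each clone. Promoter windows came from RefSeq (GRCr8), where 5 of the 6 genes matched, all but Fn1.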

Additional observations from a re-analysis of the deposited data

Results flagged for a closer look

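For 4 probe sets every 5-3 clone moved one way from the parental array and every 1-1 clone the other way. The difference between the sets' departures from the parental line, on the log2 scale, was 1.61 for Fn1, 1.43 for the Itgb1 probe set 1387346_at, 0.95 for Timp1 and -3.45 for the Timp2 probe set 1386940_at. These differences were not tested, since the genes were chosen on them, and both departures use the same parental array. For Itgb1 and Timp1 1 of the sets lay close to the parental array: the 1-1 clones differed from it by -0.09 and -0.14 for Itgb1, and the 5-3 clones 0.04 and 0.29 above it for Timp1.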

How the results depend on the processing

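Over the 9 probe sets of the 6 genes, 89 of 90 differences recomputed with another offset or scaling moved by less than 1 SD between clones; the Timp2 difference between the sets was -2.46 with an offset 4 times larger, since the 5-3 signals lie near the floor, and -4.03 with one 4 times smaller. Leaving out 1 clone at a time, differences of set 5-3 from set 1-1 ranged from 1.49 to 1.73 for Fn1, 1.00 to 1.15 and 1.36 to 1.51 for the Itgb1 probe sets, 0.76 to 1.13 for Timp1, -4.34 to -2.55 for Timp2, -1.91 to -0.09 for Sparc and -0.42 to 0.67 for Col9a1, whose clones differed from the parental line by -2.02 to -1.66. Over all probe sets, limma called 21 higher and 19 lower in set 5-3, with 38 and 32 under median centring, 7 and 3 without a filter, 6 and 6 with the filter at the 60th percentile, 13 higher without the variance trend, and 31 to 127 higher and 18 to 137 lower without 1 clone. Of the listed genes 1 was called higher and 0 lower in the main fit. The higher call, Adam15, was lost (0 called) without a filter, at the 60th percentile and without the trend. It was also lost without clone 2 or 16 of set 1-1. Listed genes called lower numbered 1 with the larger offset (Tfpi) and 2 under median centring (Tfpi and Tgfb2). With a set down to 1 clone, the spread of each gene comes from the other set alone, so calls gained in those fits are not counted here. The cause of the shifts under the other settings was not tested. Between the clones and the parental line 0 were called under every alternative. No paired analysis was possible because the clone numbers pair nothing across the sets. Dim signals, without detection calls, limit Timp1, Timp2, Sparc and most collagens.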
